A study of Mus musculus with 8 samples.

Results

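The effect of JAK2V617F was examined in megakaryocyte and erythroid progenitors (MEP) on 4 of the 8 arrays of the series, chosen by cell type and genotype and not by any measured value. The arrays form 2 matched pairs. In the Ezh2-intact pair JAK2V617F MEP were set over WT MEP, and in the Ezh2-deleted pair MEP with JAK2V617F and deleted Ezh2 (the double mutant) were set over MEP with deleted Ezh2 alone. Total marrow of the WT group came from Cre-ERT2 mice and that of the JAK2V617F group from JAK2V617F;Cre-ERT2 mice. Marrow of the Ezh2-deleted group came from Ezh2flox/flox;Cre-ERT2 mice and that of the double mutant from JAK2V617F;Ezh2flox/flox;Cre-ERT2 mice, so all 4 groups carried Cre-ERT2, and the strain was C57BL/6. It was transplanted into wild-type CD45.1+ recipients after lethal irradiation, Ezh2 was deleted 4 weeks later, and MEP were sorted 2 months after transplantation. Each group was measured once, from 20 ng of RNA labelled with Cy3, and the labels give neither the number of mice behind an array, nor the promoter that drives JAK2V617F, nor whether the sort used the donor marker.

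JAK2 is the kinase that sits on cytokine receptors such as that for erythropoietin and activates STAT5 when they bind their ligand. The V617F change keeps the kinase active without ligand and is the common driver of polycythaemia vera, essential thrombocythaemia and primary myelofibrosis. MEP give rise to red cells and to megakaryocytes, which make platelets.

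The arrays read a megakaryocyte and erythroid fraction by the level of its markers. All 7 MEP markers (Gata1, Klf1, Epor, Tal1, Gfi1b, Car1 and Itga2b) were well above background on all 4 arrays, and of 5 stem cell markers 1 to 2 were. Detection alone does not set MEP apart, since 6 to 7 MEP markers were so on the stem cell (LSK) arrays too. Values below are levels, the log2 signal minus the 75th percentile of the array, or log2 folds, the difference of 2 levels. The MEP markers summed to 9.03 in WT, 8.82 with JAK2V617F, 8.75 with Ezh2 deleted and 8.20 in the double mutant. All 4 granulocyte progenitor markers were also well above background on all 4 MEP arrays, summing to 3.21, 5.63, 4.10 and 6.97 in that order. On the LSK arrays the MEP markers summed to between 4.47 and 5.46. Jak2 was at 3.07 in WT, 3.17 with JAK2V617F, 2.89 with Ezh2 deleted and 2.38 in the double mutant, and its probe cannot tell the mutant from the normal transcript. Ezh2 was at 3.97, 4.04, 3.86 and 3.43 in the same order, and the exon that its probe reads is not known, so it checks nothing about the deletion. Xist, the RNA of the inactive X chromosome, was at 1.98 and 2.85 on the arrays with deleted Ezh2 and below background on the others, and Eif2s3y of the Y chromosome was the reverse (3.39 in WT and 3.26 with JAK2V617F). Each pair was therefore matched for sex, while Ezh2 status and sex cannot be told apart between the pairs. On the MEP arrays 39.8% to 44.1% of the probes were well above background, and over genes above background on all 4 the arrays correlated at 0.972 to 0.988.

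JAK2V617F MEP had more signal from neutrophil granule genes, Socs2 and Egr4 and less from platelet genes, and this held in both pairs. Of 13187 genes tested, limma called 20 for the mean of the pairs at a Benjamini-Hochberg adjusted p under 0.05, which is 0.152% of them. Of these, 15 were higher (0.114%) and 5 lower (0.0379%), while an unadjusted p under 0.05 was reached by 1048, 604 of them higher and 444 lower. With 1 array a group, the fit took its spread from the disagreement of the pairs in MEP and in LSK, the stem cell fraction. The fit had 2 residual degrees of freedom, and a median of 5.56 after limma drew the spread of each gene toward that of all genes. Without any 1 of the MEP arrays it called 0 genes (1569 to 2718 at an unadjusted p under 0.05), and without any 1 of the LSK arrays 344. Only 3 of the 20 called genes, Egr4, Mpo and Ifitm1, were well above background on all 4 MEP arrays. When the test was run over the 10628 genes that were, limma called 48 higher and 48 lower (0.452% each way). That filter leaves out genes that dropped under background on 1 side, and adjusted p-values from it are named as such below. With it the degrees of freedom were 9.82, of which 2 were residual.

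By fold alone, with no test, 86 genes were at least 2-fold higher in both pairs and 86 at least 2-fold lower, each 0.76% of the 11313 genes measured in both. After normexp background correction the 172 genes were 76. Of the 86 higher genes 53 were well above background on all 4 arrays, and of the 86 lower genes 62. The median log2 fold over all genes was -0.01 in the Ezh2-intact and -0.13 in the Ezh2-deleted pair. Another 22 genes were at least 2-fold apart in opposite ways.

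**Figure D1:**
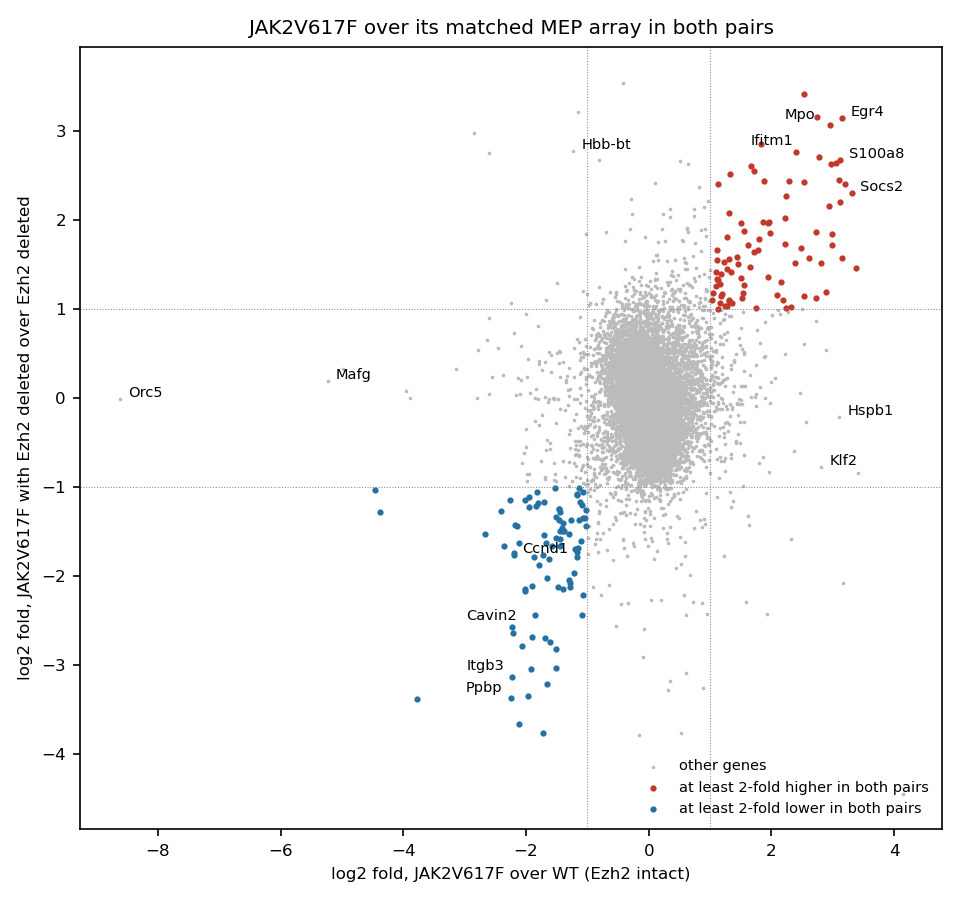
Log2 fold of each gene measured in both pairs, with the Ezh2-intact pair on the horizontal and the Ezh2-deleted pair on the vertical axis; 1 point is 1 gene and dotted lines mark 2-fold. The 86 genes higher in both pairs are red and the 86 lower in both are blue, and Orc5 and Mafg lie far to the left with no difference in the other pair.

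Egr4, a zinc finger transcription factor of the early growth response family, was the called gene whose pairs lay closest among those above background on all arrays. Its level was -1.47 in WT and 1.69 with JAK2V617F, and -2.41 with Ezh2 deleted and 0.74 in the double mutant. Both JAK2V617F arrays lay above both others. Egr4 rose 8.88-fold (log2 3.15, SE 0.20, limma adjusted p = 0.024), 8.92-fold in one pair and 8.84-fold in the other. The family member Egr1 did not share this, with log2 folds of 1.20 and -0.33, nor did Egr2 with 0.87 and 0.00.

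Among STAT5 targets and feedback genes, Socs2 stood far above the rest. Socs2, which damps cytokine receptor signals, had a level of -2.11 in WT, 1.20 with JAK2V617F, -0.96 with Ezh2 deleted and 1.35 in the double mutant. The JAK2V617F arrays were above the others, by 9.93-fold and 4.94-fold (limma log2 2.81, SE 0.31, adjusted p = 0.0665, and 0.00249 over the genes above background on all 4 arrays). Its other probes gave 3.52 and 2.48, and 3.60 and 2.72. Osm, which encodes the cytokine oncostatin M and is induced by STAT5, was 2.48-fold and 2.95-fold higher (adjusted p = 0.102, and 0.0150 with the stricter filter). Cish, another feedback inhibitor, was only 1.73-fold and 1.65-fold higher, from 3.44 to 4.22 and from 3.96 to 4.69, and was not called (adjusted p = 0.344). The kinase gene Pim1 was higher by log2 folds of 0.54 and 0.58. Ccnd1, the D-type cyclin, went the other way, from 1.27 to -0.92 and from 1.58 to -0.19, which is 4.57-fold and 3.40-fold lower (adjusted p = 0.0805, and 0.00581 with the stricter filter). Bcl6, a transcriptional repressor that STAT5 represses in other blood cells, was 2.75-fold and 2.38-fold lower (adjusted p = 0.162, and 0.0329 with the stricter filter). Of the 22 members of this list, all well above background on every MEP array, 2 were higher and 2 lower by 2-fold in both pairs, and the medians of 0.17 and -0.19 lay near those of all genes. Of 24 tested proteins of the pathway itself 0 were 2-fold apart in either pair. Their medians were 0.12 and -0.43, with 17 of the 22 measured members higher in the Ezh2-intact pair and 1 higher in the Ezh2-deleted pair. Over all 11313 genes measured in both pairs, 5532 were higher in the Ezh2-intact and 4442 in the Ezh2-deleted pair. Glycolysis and cell cycle genes were also mostly lower in the Ezh2-deleted pair, with 2 of 21 and 3 of 25 higher, while 15 of 19 NF-kB and inflammation genes were higher. Stat5a was at 4.12 in WT and 4.19 with JAK2V617F, and at 3.90 with Ezh2 deleted and 3.15 in the double mutant.

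STAT5 binds the palindrome TTCNNNGAA, which reads the same on both strands. RefSeq promoters (GRCm38.p6) were at hand for 10553 of the 13187 tested genes, and the 250 bases before the start held this motif in 776 of them (7.35%). Among genes 2-fold higher in both pairs it was 11 of the 61 with a promoter (18.0%), and among those 2-fold lower 2 of 68 (2.94%). A match is a description of the sequence alone, and binding was not measured. The windows below belong to genes of the next paragraphs that were higher in both pairs, and to Bcl6, which was lower. They are shown 5′ to 3′ on the strand of the gene with the motif in capitals.
Icam1, chr9:21015690-21015939, plus strand: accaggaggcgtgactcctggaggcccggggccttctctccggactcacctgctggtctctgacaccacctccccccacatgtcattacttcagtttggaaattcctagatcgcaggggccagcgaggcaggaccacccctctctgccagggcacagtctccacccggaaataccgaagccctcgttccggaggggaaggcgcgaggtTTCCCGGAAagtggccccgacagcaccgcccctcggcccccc
Ifitm6, chr7:141016893-141017142, minus strand: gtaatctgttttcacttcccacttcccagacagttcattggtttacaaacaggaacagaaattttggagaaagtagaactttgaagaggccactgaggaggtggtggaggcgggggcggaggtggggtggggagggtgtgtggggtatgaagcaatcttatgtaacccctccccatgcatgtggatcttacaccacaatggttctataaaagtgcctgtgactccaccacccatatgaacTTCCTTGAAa
Ctsg, chr14:56102575-56102824, minus strand: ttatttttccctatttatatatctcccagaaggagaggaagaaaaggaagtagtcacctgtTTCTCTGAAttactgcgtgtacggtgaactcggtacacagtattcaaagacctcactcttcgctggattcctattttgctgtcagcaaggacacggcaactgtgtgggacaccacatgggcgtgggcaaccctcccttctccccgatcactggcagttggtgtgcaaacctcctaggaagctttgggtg
Bcl6, second start, chr16:23981284-23981533, minus strand: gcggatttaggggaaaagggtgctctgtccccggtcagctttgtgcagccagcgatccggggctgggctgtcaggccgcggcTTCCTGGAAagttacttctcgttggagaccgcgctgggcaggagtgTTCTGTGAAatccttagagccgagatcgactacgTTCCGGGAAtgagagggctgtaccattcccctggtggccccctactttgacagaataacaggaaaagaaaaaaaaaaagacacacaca
The motif of Icam1 begins 42 bases before the start and that of Ifitm6 only 10 bases before it, while that of Ctsg lies 189 bases away. The start of Bcl6 shown here has 3 motifs, and its other start has 1. Cish has none in the 250 bases, but at the start itself, in a run of 30 bases chosen after its window was read, it has 2.
Cish, chr9:107296655-107296684, plus strand: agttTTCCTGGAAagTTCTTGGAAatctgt

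Platelet genes were lower with JAK2V617F in both pairs. The list of surface receptors had 9 of 18 tested members at least 2-fold lower in both pairs and 0 higher, with medians of -1.07 and -1.34. The list of granule and cytoskeleton genes had 10 of 26 lower and 0 higher, with medians of -0.83 and -1.44, and 5 members were above 0 in both pairs. The first median was -0.50 after normexp and -0.44 with probes averaged, and the second was -0.94 after normexp. These 19 genes make up 19 of all 86 genes that were 2-fold lower in both pairs. In the fit over all genes 0 platelet genes passed, and with the filter on all 4 arrays 14 passed as lower, 6 of 16 receptors and 8 of 20 others, with 0 higher. The number was 11 with dim values at the background floor and 11 after normexp, 15 with an intensity trend and 19 with the MEP arrays alone, the last 2 settings with 1 platelet gene called higher. It was 0 with quantile normalization, the authors' series table, probes averaged or no filter.

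Itgb3, the beta chain of the fibrinogen receptor, was at 2.87 in WT and 0.65 with JAK2V617F, and at 3.04 with Ezh2 deleted and -0.09 in the double mutant. It was 4.68-fold and 8.77-fold lower (limma log2 -2.68, SE 0.32, adjusted p = 0.0745, and 0.00310 with the filter on all 4 arrays), and its other probe was lower as well (-1.53 and -0.96). Its partner Itga2b was at 3.26 and 1.98, and at 3.00 and 0.91 (adjusted p = 0.0150 with that filter). Epor, the erythropoietin receptor, which signals through JAK2, was only 1.16-fold and 1.34-fold lower.

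Among granule proteins, Pf4, the chemokine platelet factor 4, was at 7.96 in WT and 6.56 with JAK2V617F, and at 8.72 with Ezh2 deleted and 6.57 in the double mutant. Vwf, the von Willebrand factor, was at 5.12 and 3.61, and at 4.79 and 1.96. Both were lower on the JAK2V617F arrays than on either other array, Pf4 by 2.64-fold and 4.44-fold and Vwf by 2.85-fold and 7.10-fold. Ppbp, the precursor of platelet basic protein, was 4.71-fold lower in the first pair and at least 10.4-fold lower in the second, where the double mutant was not well above background. Mmrn1, which carries factor V, was 4.19-fold and 6.91-fold lower, and Selp, the P-selectin of alpha granules, 3.75-fold and 4.33-fold. Cavin2, a caveolar coat protein abundant in platelets, was 4.71-fold and 5.95-fold lower (adjusted p = 0.0665, and 0.00310 with the filter on all 4 arrays). Treml1, Plek, Rab27b, Tbxa2r, P2rx1, Esam, Clec1b, F5, Tpm4 and Serpine2 were also past 2-fold in both.

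Not every platelet gene was lower. Gp9 was only 1.32-fold and 1.54-fold lower, Gp5 had log2 folds of 0.28 and -0.85, and the thrombin receptor F2r 0.70 and -0.40. F13a1, the factor XIII chain also made by monocytes, was higher, at least 1.43-fold in the Ezh2-intact pair and 6.33-fold in the other. The transcription factors of the lineage had no member past 2-fold in both pairs. Fli1 was 1.41-fold and 1.98-fold lower, Runx1 had log2 folds of 0.37 and -0.68, and Gata2 0.73 and -0.94. In a sorted fraction, fewer cells of a type and less RNA per cell cannot be told apart.

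**Figure D2:**
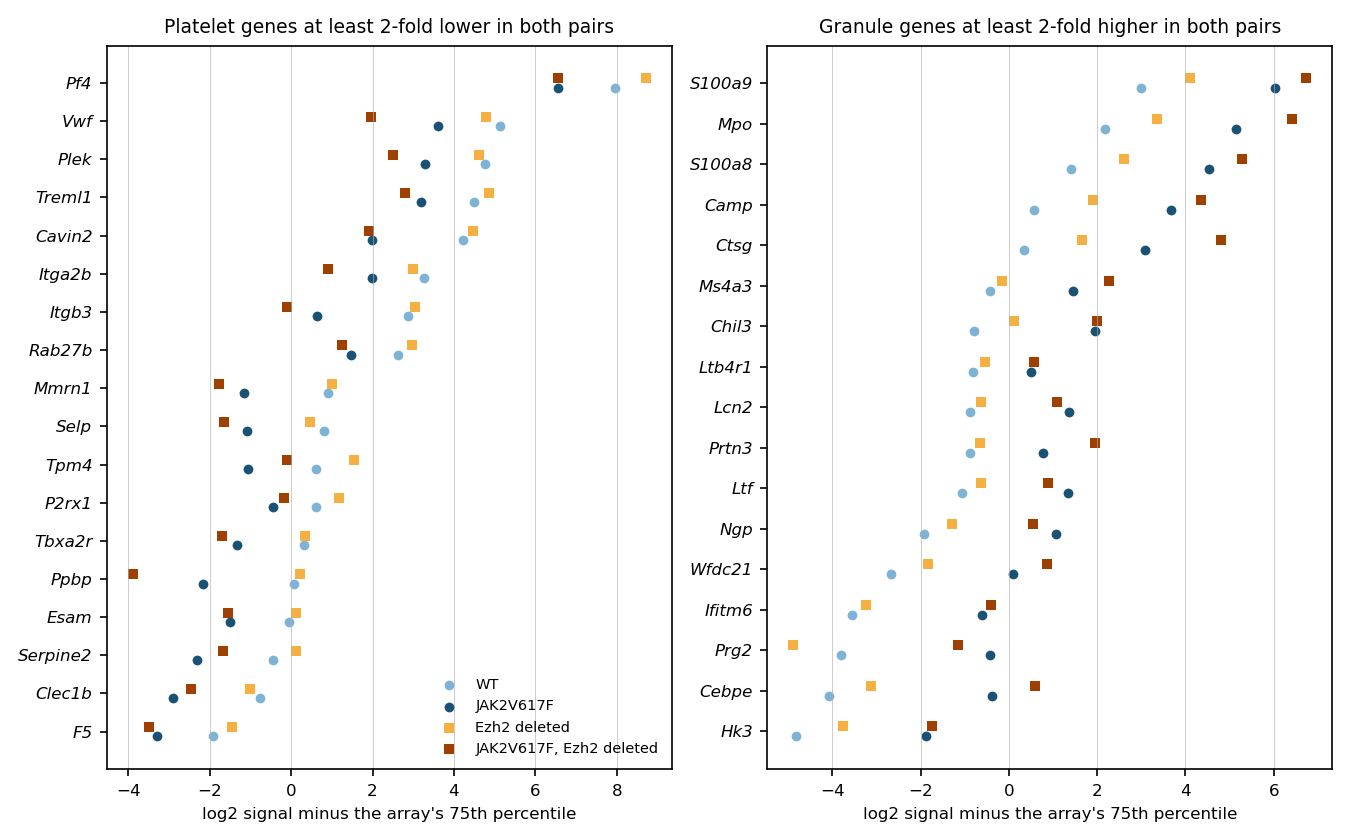
Level of each array (log2 signal minus the 75th percentile, horizontal axis) for 18 of the 19 platelet genes that were at least 2-fold lower in both pairs and the 17 granule genes that were at least 2-fold higher; circles are the Ezh2-intact and squares the Ezh2-deleted pair, and dark marks are JAK2V617F. The dark marks lie left of the light ones in each platelet row and right of them in each granule row.

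Neutrophil granule genes were higher on both JAK2V617F arrays. Of 14 tested genes of secondary granules and calprotectin, 11 were at least 2-fold higher in both pairs and 0 lower (medians 2.53 and 1.87), and of 16 genes of primary granules 6 were higher and 0 lower (medians 0.99 and 1.1, and 0.63 and 0.44 after normexp). Mpo, the myeloperoxidase of primary granules, was at 2.18 in WT and 5.14 with JAK2V617F, and at 3.35 with Ezh2 deleted and 6.41 in the double mutant. Mpo rose 8.06-fold (log2 3.01, SE 0.27, limma adjusted p = 0.0361), 7.78-fold and 8.36-fold in the pairs. The call was lost with quantile normalization at nearly the same fold (log2 2.96). Ifitm6, a membrane protein of the interferon-induced family listed here with neutrophil genes, was not well above background without JAK2V617F and reached -0.62 and -0.40 with it. It was at least 4.90-fold and at least 5.42-fold higher (adjusted p = 0.024). These were the 2 called genes of these lists, and with the filter on all 4 arrays 11 passed as higher and 0 as lower.

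S100a8 and S100a9, the subunits of calprotectin, moved in parallel. S100a8 was at 1.41 in WT and 4.53 with JAK2V617F, and at 2.60 with Ezh2 deleted and 5.27 in the double mutant, and S100a9 was at 2.99, 6.03, 4.10 and 6.74 in the same order. Both were higher on the JAK2V617F arrays, S100a8 by 8.71-fold and 6.39-fold and S100a9 by 8.25-fold and 6.24-fold (adjusted p = 0.106 and 0.1, and 0.00654 and 0.00577 with the filter on all 4 arrays). Ctsg, the protease cathepsin G, was 6.71-fold and 8.90-fold higher (adjusted p = 0.0548, and 0.00174 with that filter), and Camp, the cathelicidin, 8.62-fold and 5.46-fold. Cebpe, the transcription factor of late granulocyte maturation, was below background on both arrays without JAK2V617F and higher with it, by a log2 fold of at least 2.53 and at least 3.42. Elane, neutrophil elastase, was less far apart (1.39-fold and 2.61-fold), and Lyz2 was level (log2 folds -0.04 and 0.41). Mmp8, the collagenase of mature neutrophils, was not well above background on any MEP array, nor were Mmp9 and Cd177, and Retnlg was above it in the double mutant alone. Of 6 neutrophil markers 5 were well above background on every MEP array, and their summed level was 3.68 in WT, 6.73 with JAK2V617F, 4.81 with Ezh2 deleted and 7.40 in the double mutant. The part of these cells in the other differences was not tested.

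Further genes above background on all arrays were higher beside them. Ifitm1, another member of the interferon-induced transmembrane family, was at 3.33 in WT and 5.73 with JAK2V617F, and at 4.12 with Ezh2 deleted and 6.89 in the double mutant. It rose 6.01-fold (log2 2.59, SE 0.23, adjusted p = 0.0338). Hp, haptoglobin, which binds free haemoglobin and is stored in neutrophils, was higher by log2 folds of 2.98 and 2.63 (adjusted p = 0.0646). Cd48, a ligand of natural killer and T cell receptors that is absent from stem cells, was 3.28-fold and 3.10-fold higher (adjusted p = 0.0748). Genes of other white cells moved too. In the mast cell and basophil list 4 of 13 tested genes were 2-fold higher in both pairs and 0 lower. Fcer1a, the IgE receptor chain, was at -2.31 in WT and 0.62 with JAK2V617F, and at -2.27 with Ezh2 deleted and -0.12 in the double mutant, 7.64-fold and 4.45-fold higher. Hdc, the histamine enzyme, was at least 8.73-fold and at least 4.60-fold higher, since both arrays without JAK2V617F were under background. Other defining genes of these cells were dim, as Prss34 and Ms4a2 were under background on all 4 arrays and Mcpt8 was above it in WT alone. Their 4 markers summed to 1.02 in WT, 0.42 with JAK2V617F, -0.18 with Ezh2 deleted and -0.67 in the double mutant. Of 14 monocyte genes 2 were 2-fold higher in both pairs, Cx3cr1 (7.42-fold and 2.28-fold) and Clec10a (at least 4.65-fold and at least 4.05-fold), while the 3 monocyte markers on the array summed to 3.00, 2.78, 3.06 and 3.28 in WT, JAK2V617F, Ezh2-deleted and double mutant MEP.

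B lineage genes were lower with JAK2V617F where Ezh2 was deleted. Of 11 tested, 10 were at least 2-fold lower in the Ezh2-deleted pair and 3 in the Ezh2-intact pair, with 0 higher in either. Only 5 were measured in both pairs. On the Ezh2-deleted array 10 list members were well above background, against 5 in WT, 3 with JAK2V617F and 7 in the double mutant. Genes could be tested through the arrays where they were bright, so the counts of the 2 pairs cannot be compared directly. Vpreb1, part of the surrogate light chain, was at 4.31 with Ezh2 deleted and 1.22 in the double mutant, and at -1.30 in WT and -0.69 with JAK2V617F. The Ezh2-deleted array was the highest, the double mutant came next and the arrays with intact Ezh2 were the lowest. Blnk, the B cell linker adapter, was lower in both pairs, from -0.80 to -2.32 and from 2.79 to -0.25 (adjusted p = 0.126, and 0.0104 with the filter on all 4 arrays). Dntt and Igll1 were also past 2-fold in both. Of the 4 B cell markers, 2, among them Ebf1, were well above background on the Ezh2-deleted array and 0 on the others, and Pax5 and Cd79a were above it on none. Their summed level was -3.01 in WT, -2.65 with JAK2V617F, 0.30 with Ezh2 deleted and -2.82 in the double mutant, and their part in these folds was not tested. Over all genes, 2.56% were at least 2-fold higher and 2.5% lower in the Ezh2-intact pair, and 3.13% higher and 2.74% lower in the Ezh2-deleted pair.

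The remaining called genes were near or under background on 1 side, so their folds, where a pair could be measured, are lower bounds. Calcb, a calcitonin peptide gene, was at least 7.03-fold and at least 2.86-fold higher (adjusted p = 0.0338). Pik3c2g, a class II phosphoinositide kinase, was at least 3.85-fold and at least 3.89-fold higher (adjusted p = 0.024). Its second probe, above background on 1 MEP array, had log2 folds of -0.23 and 3.48, and the call was lost with probes averaged and after normexp. The calls of Calcb (log2 1.51) and Serpina6 (0.65) were lost after normexp as well. So were those of Kynu, Lypd6b, Ces2h, Dubr and Adamts17, and of Tdpoz1, Slc14a2 and Gpm6b among the genes called lower. Kynu, Lypd6b, Ces2h, Dubr, Adamts17 and Serpina6 were called higher as well, and a second probe of Kynu, under background on all 4 arrays, had log2 folds of -0.24 and -0.33. Second probes of Adamts17 and Serpina6, and of Tdpoz1 and Slc14a2 among the genes called lower, were likewise under background on all 4 arrays and had log2 folds between -0.81 and 0.52. The genes called lower were Crygs, Serpinb10, Tdpoz1, Slc14a2 and Gpm6b. Of the MEP arrays, Gpm6b was well above background on the Ezh2-deleted one alone. It had no fold in the Ezh2-intact pair and was at least 2.77-fold lower in the other. With dim values at the floor some folds were small. Serpina6 was at least 1.39-fold and at least 1.57-fold higher, and Tdpoz1 at least 1.998-fold and at least 1.67-fold lower. Adamts17 was at least 2.43-fold and at least 1.67-fold higher, and Dubr at least 1.90-fold and at least 3.52-fold. Crygs, a lens crystallin gene, was at 0.65 in WT and 0.22 with Ezh2 deleted and under background on both JAK2V617F arrays, at least 13.7-fold and at least 10.4-fold lower (adjusted p = 0.0267). Serpinb10, a serine protease inhibitor of bone marrow, was at least 3.91-fold and at least 10.2-fold lower (adjusted p = 0.024).

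Few erythroid genes were 2-fold apart. Of 18 erythroid transcription factors 0 were so in either pair. Their medians were 0.02 and -0.48, with 2 of the 16 measured members higher in the Ezh2-deleted pair, against 4442 of 11313 over all genes. Gata1 was at 6.93 in WT and 6.78 with JAK2V617F, and at 6.81 with Ezh2 deleted and 6.23 in the double mutant. Klf1, the activator of adult beta-globin, had log2 folds of -0.17 and -0.71. Of 26 genes of the red cell membrane and surface 0 were 2-fold apart in both pairs, though 4 were lower in the Ezh2-intact pair, among them Rhd, Dmtn and Cldn13, and the medians were -0.20 and -0.39. Of 23 genes of heme synthesis and iron 1 was 2-fold lower in the Ezh2-intact pair, Uros (-1.17, against 0.66 in the other pair). Cell cycle genes had medians of -0.11 and -0.47, and of 25 only Ccne1 was past 2-fold in a pair (2.27-fold lower in the Ezh2-intact pair).

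Globins went opposite ways. Hbb-bt, an adult beta-globin gene, was at 4.28 in WT and 3.06 with JAK2V617F, but at 3.37 with Ezh2 deleted and 6.14 in the double mutant. Hba-a2, an alpha-globin gene, was at 6.22 in WT and 3.43 with JAK2V617F, and at 4.71 with Ezh2 deleted and 5.24 in the double mutant. The JAK2V617F array was the low one for alpha-globin and the double mutant the high one for beta-globin. Of 5 tested globins 4 were 2-fold lower in the Ezh2-intact pair and 0 in the other, and 3, the beta-globins Hbb-bs, Hbb-bt and Hbb-b2, were higher in the Ezh2-deleted pair. Near-identical globin genes can share signal on an array, so single globins are uncertain. Of the 4 late erythroid markers, Hbb-bt included, 1 to 2 were well above background, Alas2 was under it on all 4 MEP arrays, and Epb42 was above it in WT alone.

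Immediate early genes were higher with JAK2V617F in the Ezh2-intact pair. Of 23 tested 16 were at least 2-fold higher there and 0 lower (median 1.23), against 2 higher in the Ezh2-deleted pair (median -0.26). Klf2, a transcription factor of quiescent lymphocytes and endothelium, was at 3.64 in WT and 6.45 with JAK2V617F, and at 5.43 with Ezh2 deleted and 4.65 in the double mutant. Fos, a subunit of the AP-1 dimer, was at 4.37, 6.24, 5.48 and 4.82 in the same order. For both, the WT array was the lowest and the JAK2V617F array the highest, with the Ezh2-deleted arrays between. Dusp1, Zfp36, Btg2, Ier3 and Nr4a1 showed log2 folds of 1.33, 1.55, 1.75, 1.25 and 1.56 in the Ezh2-intact pair and of -0.63, -0.64, 0.05, -0.29 and 0.13 in the other. Only Egr4 and Nr4a2 were 2-fold higher in both pairs, the latter 2.74-fold and 2.83-fold (adjusted p = 0.0888, and 0.0108 with the filter on all 4 arrays).

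Genes of NF-kB and inflammation lay between. Of 21 tested 8 were 2-fold higher in the Ezh2-intact pair and 4 in the Ezh2-deleted pair, with 0 lower in either. Il6, the cytokine interleukin-6, was under background without JAK2V617F and at -0.67 and -0.57 with it, at least 4.72-fold and at least 4.83-fold higher (adjusted p = 0.0665). Icam1, an adhesion molecule, was 2.26-fold and 2.21-fold higher (adjusted p = 0.143, and 0.0397 with the filter on all 4 arrays). Tnfaip3, the NF-kB inhibitor A20, followed the immediate early genes instead (1.46 and -0.41).

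**Figure D3:**
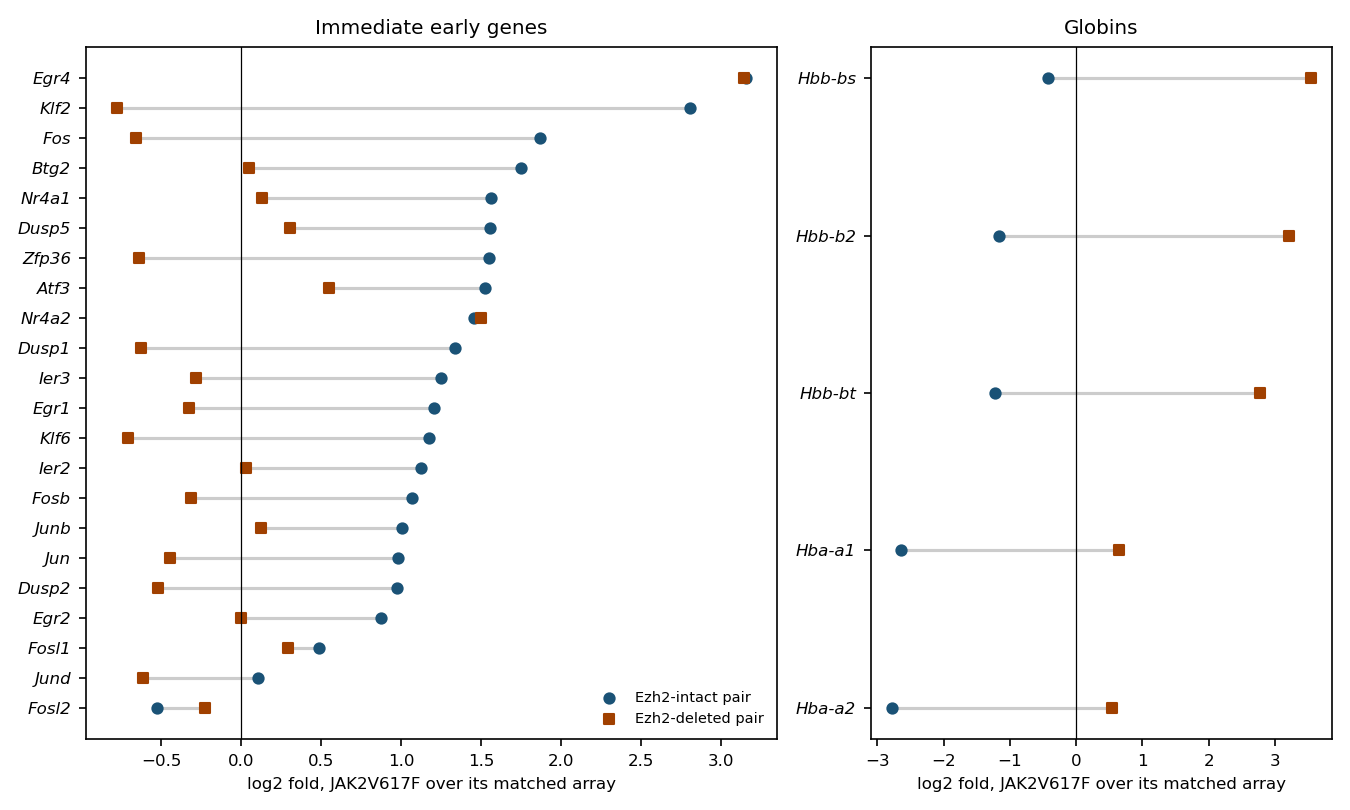
Log2 folds of JAK2V617F over its matched array for the immediate early genes and the globins measured in both pairs; blue circles are the Ezh2-intact pair and brown squares the Ezh2-deleted pair. Most immediate early genes have the circle past 1 and the square near or under 0, and the beta-globins have the circle left and the square right of 0.

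Whether the pairs differed was put to limma with an added interaction within MEP. It called 0 genes, 0% of 13187, and 2142 had an unadjusted p under 0.05, with 1 residual degree of freedom for the spread. It called 257 when dim genes were not filtered out, 2 with an intensity trend and 1 after normexp. The difference of Fos had an unadjusted p of 0.00634 (adjusted p = 0.306), that of Hbb-bt 0.00335 (adjusted p = 0.303) and that of Hba-a2 0.00197 (adjusted p = 0.292). The opposite folds of globins and immediate early genes are thus folds between single arrays that did not pass the test of their difference. The spread of that test came from the same interaction in LSK, drawn by limma toward the spread over all genes. A difference between the LSK pairs thus counted as spread, and 0 calls do not show that the MEP pairs were alike.

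Some genes were apart in 1 pair alone, by at least 4-fold there and under 1.5-fold in the other with dim values at the background floor. Where an array of the other pair was dim, its fold is a lower bound and may be larger, as for Krtap9-1, Usp54, F13a1, Snrpn, Helt, Olfr1502, Zbtb21, Pdc and Carf below. In the Ezh2-intact pair 6 were higher (0.053% of the genes measured in both) and 17 lower (0.15%), and in the Ezh2-deleted pair 8 were higher (0.0707%) and 12 lower (0.106%). Hspb1, a small heat shock protein, led the first class with levels of 0.13 in WT and 3.23 with JAK2V617F, and 1.49 and 1.28 in the other pair. Ebi3, a subunit of interleukin-27, followed (7.38-fold against 1.45-fold), then Prpf4b, Ro60, Cxcl2 and Arl5c. A second probe of Prpf4b, above background on all 4 MEP arrays, did not share this (log2 folds of -0.13 and -0.54), and with probes averaged the log2 fold of Prpf4b in the Ezh2-intact pair was 1.22 in place of 2.56. The 6 lower genes named here were highest on the WT array. Orc5, of the origin recognition complex, was at 9.30 in WT and between 0.22 and 0.67 on the other MEP arrays. It was read by a single probe, so no other probe bears on the value of this 1 array. Mafg, a small Maf protein, was at 9.71 in WT and between 4.46 and 4.65 on the others, and its other probes, all above background, had log2 folds of 0.01 in the Ezh2-intact pair. The value of Mafg from its brightest probe is thus not shared by the rest of the gene. Krtap9-1, Usp54, Sh3tc1 and Arhgdig came next, and a second probe of Usp54, above background on 0 MEP arrays, had log2 folds of 1.08 and 1.00. A second probe of Arhgdig, above background on all 4 MEP arrays, shared its fold, with log2 values of -3.36 and 0.53 against -3.14 and 0.32. Of the 66 tested genes at least 4-fold lower in the Ezh2-intact pair 16 were well above background on the WT array and on no other MEP array.

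In the Ezh2-deleted pair Hbb-bs led the higher class (11.7-fold, against 1.34-fold lower in the other pair), followed by F13a1, Tmem189, Gramd3, Snrpn and Helt. As measured, F13a1 was at -4.75 in WT, under background, and at -2.39 with JAK2V617F, and the limma difference between its pairs was 0.31 on the log2 scale (adjusted p = 0.74). A second probe of Tmem189, above background on 2 MEP arrays, had log2 folds of 0.12 and -1.30, and a probe of Snrpn, also above it on 2, had 2.43 and 5.46. With probes averaged the log2 fold in the Ezh2-deleted pair was 0.56 for Tmem189, 1.03 for Snrpn and 1.17 for F13a1. The lower genes named here were highest on the Ezh2-deleted array. Ctsf, the protease cathepsin F, was at 2.00 there and between -1.97 and -0.59 on the other MEP arrays, and Aadacl4fm5 was at 0.76 against -3.03 to -2.84. Olfr1502, Zbtb21, Pdc and Carf belong to the same class. Among the genes tested, those at least 4-fold above all other MEP arrays numbered 40 on the WT, 57 on the Ezh2-deleted, 14 on the JAK2V617F and 41 on the double mutant array. Tested genes are above background on 2 or more of 8 arrays, which leaves out genes bright on 1 array alone. Without that filter, genes at least 4-fold above all other arrays of the series numbered 156, 133, 110 and 100 in the same order. Those well above background on that array and on no other of the 8 numbered 170, 141, 148 and 166.

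The platelet and granule lists were set beside the same folds in LSK. Of all 13187 tested genes 173 were 2-fold higher in both LSK pairs (1.31%) and 160 lower (1.21%). Of 30 tested granule genes 14 were 2-fold higher in both LSK pairs too, with medians of 1.97 and 0.92 there against 0.09 and 0.07 over all genes. Of the 44 tested platelet genes 5 were 2-fold lower and 2 higher in both LSK pairs, and their medians there were 0.06 and 0.21. Itgb3 had log2 folds of 0.14 and 0.87 in LSK, and Pf4 0.92 and 0.71. Outside these lists, Egr4 had log2 folds of 3.65 and 3.57 in LSK, and Socs2 3.07 and 2.54. Of the 86 genes 2-fold higher in both MEP pairs 37 were so in both LSK pairs, with 78 measured there, and of the 86 lower 14 were lower and 3 higher, with 71 measured. The test of MEP against LSK called 0 genes (0%, with 1523 at an unadjusted p under 0.05), and its adjusted p was 0.191 for Itgb3 and for Pf4. No gene can be called particular to MEP from these arrays.

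**Figure D4:**
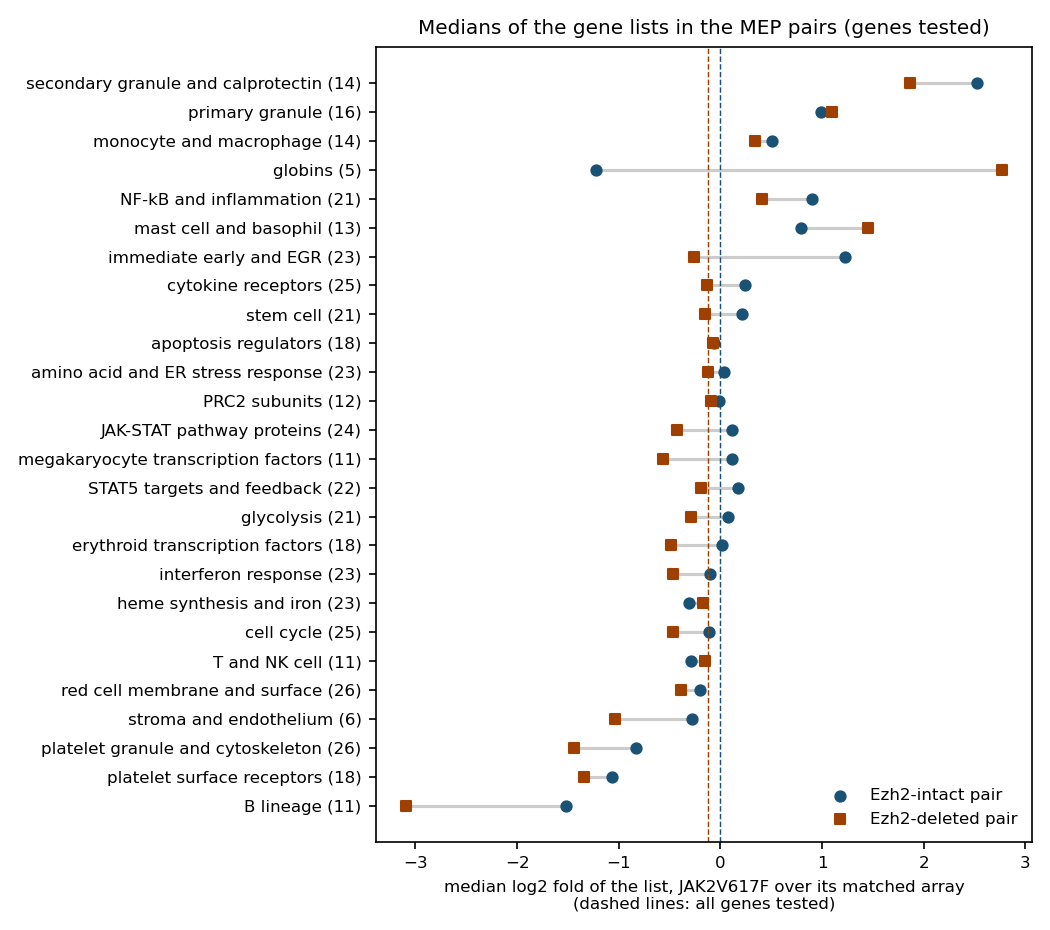
Median log2 fold of each gene list (vertical axis, number of genes tested in brackets) in the Ezh2-intact pair (blue circles) and the Ezh2-deleted pair (brown squares), with dashed lines at the medians of all genes. Granule lists lie to the right and platelet lists to the left in both pairs, and globins and immediate early genes have their pairs on opposite sides.

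Of the remaining lists, the stroma and endothelium list had medians of -0.28 and -1.04, with 3 of 6 tested genes 2-fold lower in the Ezh2-deleted pair. The interferon response had medians of -0.10 and -0.47, with Gbp3 the 1 member higher in both pairs (4.57-fold and 2.15-fold) and Ifi44 the 1 lower. Glycolysis had medians of 0.08 and -0.29, apoptosis regulators -0.06 and -0.07, and the subunits of PRC2, the complex of Ezh2, -0.02 and -0.09. Pmaip1, the apoptosis activator Noxa, was 6.64-fold and 2.18-fold higher, and Nupr1, a stress-induced chromatin protein, 6.15-fold and 2.98-fold (adjusted p = 0.1, and 0.00680 with the filter on all 4 arrays). Among cytokine receptors Csf2rb2 was higher in both pairs (at least 4.71-fold and at least 2.01-fold), and Il6ra was lower (5.15-fold and 3.18-fold).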

How the data were processed

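Each scanner file holds one array's intensity per spot, deposited as written by Agilent Feature Extraction 10.7.1.1 (per the file headers), which subtracted background and detrended within each array. The authors' series table, used as an alternative, proved on comparison with the scanner signals to be a linear ratio of each probe to a constant of its array. All 8 arrays share 1 slide and 1 scan. Spots of a probe were averaged without non-uniform spots, and each array's 75th percentile was subtracted on the log2 scale. Probes were named through RefSeq accessions (27509 of 55681), and each gene was read from its brightest probe. A gene was tested where the scanner flagged its probe as well above background on 2 or more of 8 arrays. In a pair, a dim side took the lowest flagged signal of its array where its own was lower, which gives a lower bound ("at least"). SE and p come from limma 3.58.1 in R 4.3.3 on the values as measured, with JAK2 and Ezh2 terms nested in cell type over 8 arrays. The fits were run on data simulated from their own model with independent noise, which checks the code and not the calls made here. Values are compared between arrays of single groups, and the number of arrays limits the precision. The p-values rest on the spread between pairs, which may be technical, drawn by limma toward the spread over all genes.

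The members, gene lists, settings and the rule for named genes were chosen with earlier results of these data known. The rule names up to 12 called genes each way, 12 each way by the smaller fold in both pairs, 6 each way for 1 pair only, up to 8 of a list, and Jak2, Ezh2 and sex-linked genes. Names beyond it (Cd48, Epor, Nr4a2, further platelet, STAT5 and granule genes, and the sequences shown) were chosen after their values were seen. Some genes are not reported by name here.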

Additional observations from a re-analysis of the deposited data

Results flagged for a closer look

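The results below are flagged because the 2 pairs moved in opposite ways or far apart, and each rests on single arrays. Differences are the log2 fold of the Ezh2-deleted pair minus that of the Ezh2-intact pair. They were 4.0 for Hbb-bt (limma unadjusted p = 0.00335, adjusted p = 0.303) and 4.37 for Hbb-b2 (unadjusted p = 0.00281), both adult beta-globin genes. The difference of Pdgfrb, the PDGF receptor of stromal cells, was -2.39 (unadjusted p = 0.00224). The median of the globin list differed by 4.0 between the pairs, and that of the immediate early list by -1.48, and these differences of medians were not tested.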

How the results depend on the processing

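The count of called genes moved from 20 to 50 after normexp, to 96 over genes above background on all 4 MEP arrays, to 0 with no filter (1295 at an unadjusted p under 0.05), to 71 with dim values at the floor, to 111 with an intensity trend, to 344 with the MEP arrays alone and to 82 at an adjusted p under 0.10. Of the 20 genes 8 were among those called after normexp, 3 with the filter on all 4 arrays, 12 with the floor and 16 with the trend, and all 20 with the MEP arrays alone. Leaving out 1 array gave 0 without any of the MEP arrays, which ends a pair, to 344 without any of the LSK arrays, where 1 residual degree of freedom is left. The test of the difference between pairs gave 0, and 1 after normexp, 257 with no filter and 2 with the trend. It could not be fitted without any of the arrays. Genes 2-fold apart in both pairs numbered 172, and 76 after normexp, 442 at 1.5-fold and 63 at 3-fold. Genes of the Ezh2-intact pair alone numbered 23, and 9 after normexp, 37 without a floor, 58 at 3-fold and 39 with under 2-fold in the other pair. Those of the Ezh2-deleted pair alone numbered 20, and 6 after normexp, 11 over genes above background on all 4 arrays, 44 at 3-fold and 36 with under 2-fold in the other pair. Without 1 MEP array a pair is gone, so these counts have no such value. Under the alternatives 256 list medians stayed within the spread and 14 moved, and 4 small medians changed sign, those of PRC2 subunits, apoptosis regulators, cell cycle and sex-linked genes in the Ezh2-intact pair. No paired analysis was possible because each group has the replicate number 1 alone, which leaves no block of replicate numbers; the matching of the pairs by genotype is part of the fit itself.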

Other observations

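Some genes were bright on 1 array of each pair, in opposite roles. Klra16, a natural killer cell receptor gene, was at 1.29 with Ezh2 deleted and 1.23 with JAK2V617F, and under background in WT and the double mutant. Eras, an embryonic Ras gene, was the reverse, at -0.28 in WT and 0.13 in the double mutant and under background on the others. Mxra8 had the same pattern as Eras (-0.51 and -0.09). These genes were chosen after their values were seen, from the 22 that were 2-fold apart in opposite ways.

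Cdkn2a, the tumour suppressor locus silenced by PRC2, was not well above background in WT and lay at -0.39 with JAK2V617F, -1.59 with Ezh2 deleted and 0.84 in the double mutant. It was at least 5.75-fold and 5.39-fold higher with JAK2V617F (limma adjusted p = 0.236). A second probe of Cdkn2a, above background on 0 MEP arrays, had log2 folds of -0.26 and 0.63. With probes averaged the limma log2 fold of Cdkn2a was 1.86 in place of 3.53. Its neighbour Cdkn2b was at least 2.92-fold and 2.41-fold higher (adjusted p = 0.145).

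In the 250 bases before the start, the GATA motif AGATAA, on either strand, was found in 841 of 10553 promoters (7.97%). It was found in 13 of 68 genes 2-fold lower in both pairs (19.1%) and in 8 of 61 genes 2-fold higher (13.1%). Of the platelet lists it was in 3 of 15 receptors and 1 of 22 granule and cytoskeleton genes. Of the neutrophil lists, which were higher with JAK2V617F, it was in 3 of 12 secondary granule and calprotectin genes and 0 of 13 primary granule genes.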
